A study of Homo sapiens with 8 samples.

Results

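Core domains are the stretches of the genome that H3K27me3 peaks covered broadly in every library of this series. Each chromosome from 1 to 22 was divided into 5 kb bins from its first base. A bin counted when peaks covered at least 50% of it in each of the 4 peak lists, and a run of 4 or more such bins in a row was taken as a core. The rule found 1190 cores among 12861 runs of any length, and the other 11671 runs, of 1 to 3 bins, serve as the comparison. The covered share of the bins chose the cores, so coverage inside them, breaks in it and the place of their edges are a description and carry no test.

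The cells were MOLM14, a human line established from acute myeloid leukaemia. In this line FLT3, which encodes a cytokine receptor kinase, carries an activating internal tandem duplication, and KMT2A is fused to another gene. Cells were given quizartinib (AC220), an inhibitor of that kinase, or its solvent DMSO for 24 h, and chromatin bearing H3K27me3 was immunoprecipitated and sequenced. The series holds 8 samples: immunoprecipitated libraries AC220 1, AC220 2, DMSO 1 and DMSO 2, and 4 inputs whose values were not used here. All groups shared the cell line and the addition of Drosophila S2 cells before lysis. AC220 1 and DMSO 1 form set 1, and AC220 2 and DMSO 2 form set 2. Whether equally treated libraries stem from different cultures is not in the labels, so p-values describe library-to-library spread that may be technical. Read depth is unknown, because the lists hold peak positions and scores only. They do not give how much mark a cell carries.

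H3K27me3 is written by the Polycomb complex PRC2, whose catalytic subunit is EZH2, and is read by the Polycomb complex PRC1. The mark can spread along the chromatin fibre because PRC2 binds its own product and is stimulated by it. Broad domains of this kind are known over silent developmental regulators such as HOX, PAX and FOX genes. Their edges are where marked chromatin gives way to unmarked or active chromatin.

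The lists differed in how much they covered before any core was defined. On the autosomes peaks covered 191 Mb in AC220 1 against 231 Mb in DMSO 1, and 494 Mb in AC220 2 against 586 Mb in DMSO 2. Set 2 was thus the wider set under both treatments. Values that compare the treatments are therefore given within each set, apart from pooled means and calls that need both sets.

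Cores made up 34.3 Mb, or 1.19% of autosomal bins. Without AC220 1 the rule gave 2194 cores and 66.3 Mb, so 1 library sets much of their number and length; chromosome and band values below are for all 4 libraries. Of the 23238 bins covered in every library, 29.5% lay in cores. Core length was 28.8 ± 15.1 kb (mean and SD over 1190 cores), with a median of 25 kb. Of the cores, 503 (42.3%) had the shortest possible length of 20 kb. At the other end, 80 cores of 50 kb or more held 16.6% of core length, 13 reached 100 kb, and the longest was 180 kb. The distribution had no step at the threshold. There were 8011 runs of 1 bin, 2606 of 2 bins and 1054 of 3 bins below it. Just inside, the core on chromosome 3 from 38895001 to 38915000 (GRCh37, as are all positions here) had 50% of its weakest bin covered. Just outside, the run of 3 bins on chromosome 1 from 22875001 to 22890000 missed a bin more at 49.98%. Of the cores of 4 bins, 177 had a bin within 5 points above the limit, and 175 runs of 3 bins missed a bin more by less than 5 points. The library that kept those 175 runs out was AC220 1 in 104 cases, DMSO 1 in 70, AC220 2 in 0 and DMSO 2 in 1.

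**Figure D1:**
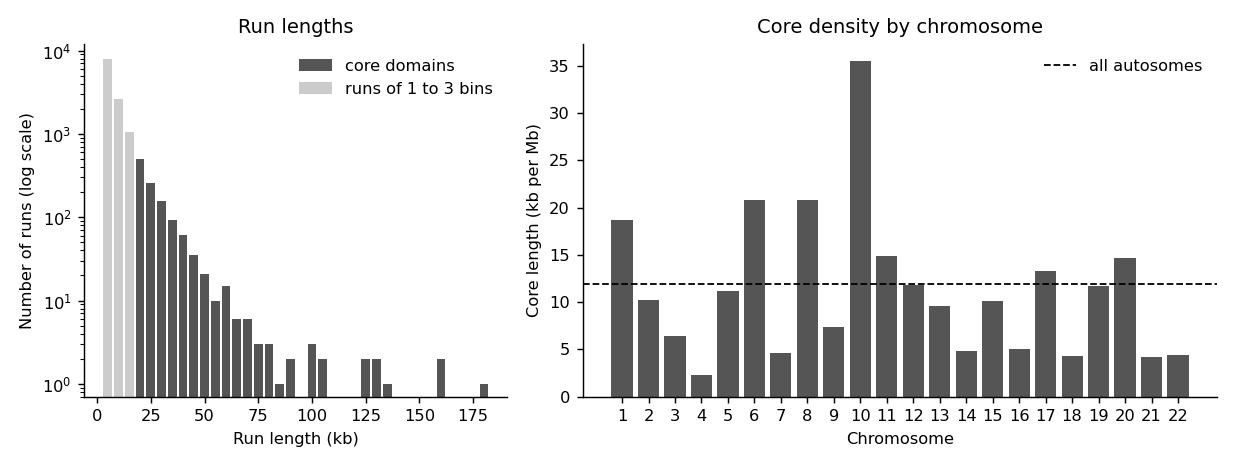
Left, number of runs (log scale) against run length in kb, with core domains dark and runs of 1 to 3 bins pale. Right, core length in kb per Mb for each autosome, with the dashed line at the autosomal value of 11.9 kb per Mb. Run number falls with length without a step at 20 kb, and chromosome 10 stands highest at 35.5 kb per Mb.

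Cores were spread unevenly over the chromosomes. Chromosome 10 held 148 cores and 35.5 kb of core per Mb, against 11.9 kb per Mb over all autosomes. Chromosomes 8 (20.8 kb per Mb), 6 (20.8 kb per Mb) and 1 (18.7 kb per Mb) followed. These 4 chromosomes carried 46.9% of core length on 24.4% of autosomal length. Chromosome 4 was lowest, with 19 cores and 2.35 kb per Mb, and its longest core was 35 kb. Bins covered in every library, in and out of cores, leaned the same way, so this is not particular to cores. Of 23238 such bins, chromosome 10 held 2300 on 4.70% of autosomal length, and chromosome 4 held 558 on 6.63%. The bins covered in every library were also gathered into longer runs on some chromosomes than on others. On chromosome 10, 41.9% of such bins lay in cores, against 16.1% on chromosome 4 and 16.4% on chromosome 22. Cores were denser in light Giemsa bands, the gene-rich part of the karyotype. Unstained bands held 63.7% of cores on 42.4% of autosomal length, and the darkest, gene-poor bands held 3.11% of cores on 16% of the length. Short runs leaned the same way, so this is not particular to cores. Of 11671 runs of 1 to 3 bins, 6772 lay in unstained bands and 597 in the darkest, beside 758 and 37 of 1190 cores.

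Neighbouring cores were often close. Over 1168 neighbouring pairs the gap had a median of 392.5 kb, with a 10th percentile of 20 kb and a 90th of 7248 kb. The gap was at most 50 kb in 267 pairs (22.9%) and over 1 Mb in 427 (36.6%). Linked across gaps of up to 50 kb, 445 cores (37.4%) fell into 178 chains, and 745 stood alone. The chain with most cores had 9, adding up to 305 kb of core within 475 kb on chromosome 10 (125395001 to 125870000), beginning in 10q26.13. A chain of 5 cores in 17q21.32, the band of the HOXB genes of body patterning, held 250 kb of core within 320 kb (chromosome 17, 46525001 to 46845000). The emptiest stretch was on chromosome 4, where 54.1 Mb separated neighbours. A gap exists because a library fell under 50% there, mostly one of set 1, so bridging of gaps is bound to the rule and is given as a description. Of the 267 close pairs, 1 peak bridged the gap and touched both members in 2 pairs in AC220 1 and 3 in DMSO 1. It did so in 53 pairs in AC220 2 and 84 in DMSO 2. As shares this was 0.749% in AC220 1 against 1.12% in DMSO 1, and 19.9% in AC220 2 against 31.5% in DMSO 2. In each of the 4 libraries most gaps between close neighbours were thus not bridged by 1 peak. The gaps were covered over a mean of 78.7% of their length in AC220 2 and 82.0% in DMSO 2, and of 39.0% in AC220 1 and 46.4% in DMSO 1.

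Gene annotation of this build was not used here, so no gene is placed inside a core, and gene names are those that textbook maps give for a band. Bands were assigned to genes with the results known, and a band holds many other genes. Of 63 bands that hold 80 developmental regulators (PAX, TBX, GATA, SOX, FOX, LHX, WNT and similar genes), 44 contained a core (69.8%), against 378 of 811 autosomal bands (46.6%). Their core density was 23.5 kb per Mb, against 11.9 kb per Mb for all autosomes. Of 21 bands that hold genes of myeloid identity, 13 contained a core (61.9%), with 15.3 kb per Mb. Those bands were also longer, with a median of 3.8 Mb for the developmental and 4.5 Mb for the myeloid list against 3.3 Mb for all. The 811 bands include those stained as centromere, variable or stalk. These held 2, 4 and 0 cores and lower the values for all bands. Runs of 1 to 3 bins were not counted over the listed bands, so the higher shares are not shown to be particular to cores. The densest band was 10q24.31, which holds the kidney and eye regulator PAX2. It had 5 cores and 414 kb of core per Mb. In 6p25.3, the band of the forkhead genes FOXC1 and FOXF2, there were 11 cores and 217 kb per Mb. In 10q26.11, the band of the forebrain homeobox gene EMX2, there were 11 cores and 140 kb per Mb, and in 8p23.1, the band of the cardiac factor gene GATA4, 20 cores and 98.5 kb per Mb. These last bands are not the next densest. Bands off the developmental list lay above both: 10q26.13 (187.5 kb per Mb), 6p21.33 (176), 20q13.32 (174), 13q12.2 (145) and 6p25.2 (145).

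Among the HOX bands, 3 of 4 held cores. There were 23 in 2q31.1 (HOXD), 8 in 17q21.32 (HOXB) and 7 in 12q13.13 (HOXC), at 89.2, 124 and 104 kb of core per Mb. The HOXA band 7p15.2 held 10 runs but no core, and its longest run was 15 kb. Among the myeloid bands, those of the granulocyte genes MPO (17q22) and CEBPE (14q11.2), the lysozyme gene LYZ (12q15), the surface receptor gene CD33 (19q13.41) and the homeobox gene MEIS1 (2p14) held no core. Yet 13 of the 21 myeloid bands did hold a core. The SPI1 band 11p11.2 held 9 (42.5 kb per Mb) and the PBX3 band 9q33.3 held 9 (64.4 kb per Mb). The IRF8 band 16q24.1 held 6 (51.7 kb per Mb) and the MYB band 6q23.3 held 5 (59.2 kb per Mb). The FLT3 band 13q12.2, which also holds the pancreatic homeobox gene PDX1, had a single core, but one of 160 kb.

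Peaks on cores ranked high within their own lists. The fold enrichment and q of a peak are the authors' values and were compared only inside a list. In AC220 2 the median fold of the 1480 peaks touching a core was 2.80, at percentile 97.3 of the list, and in DMSO 2 that of 1247 such peaks was 2.94, also at percentile 97.3. In AC220 1 the median of 4588 peaks was 2.91, at percentile 81.8, and in DMSO 1 that of 3655 peaks was 3.12, at percentile 82.6. Peaks at least 5 kb wide that touched no core had a median fold of 2.94 in AC220 1 and 3.08 in DMSO 1, next to the core values, and of 2.38 in AC220 2 and 2.35 in DMSO 2, below them. Of the 1000 peaks with the smallest q, 271 touched a core in AC220 1 and 268 in DMSO 1, and it was 257 in AC220 2 against 239 in DMSO 2. Between 1.07% and 4.41% of all peaks of a list touched a core. Wide peaks gather more reads, and how far width accounts for these ranks was not tested.

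The edges of cores were set almost wholly by set 1. In the bin just outside each of the 2380 core edges, AC220 1 was under 50% at 84.3% of edges and DMSO 1 at 71.0%. AC220 2 was under 50% at 17.3% and DMSO 2 at 16.6%. AC220 1 was the single library under the limit at 667 edges and DMSO 1 at 353, whereas AC220 2 was at 0 and DMSO 2 at 2. Both set 1 libraries, and neither of set 2, fell under the limit at 825 edges. Both AC220 libraries, and neither DMSO library, did so at 17, and both DMSO libraries, and neither AC220 library, at 7. Defined by set 1 alone, the same rule gave 1195 cores and 34.4 Mb, and defined by set 2 alone it gave 6566 cores and 252 Mb.

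Inside cores coverage was near complete in set 2 and broken in set 1. The mean covered share was 84.5% in AC220 1 against 87.6% in DMSO 1, and 98.3% in AC220 2 against 99.0% in DMSO 2. The share of core bins covered over at least 95% of their length was 43.8% in AC220 1 against 53.9% in DMSO 1, and 91.6% in AC220 2 against 95.4% in DMSO 2. A core was crossed by 3.86 peaks on average in AC220 1 and 3.07 in DMSO 1, and by 1.29 in AC220 2 and 1.12 in DMSO 2. A single peak touched the core in 88 cores in AC220 1 against 163 in DMSO 1, and in 908 in AC220 2 against 1053 in DMSO 2. Within each set the list with AC220 thus broke cores into more pieces. The mean number of peaks was 2.57 ± 1.82 with AC220 and 2.097 ± 1.38 with DMSO (SD, n = 2 each). The SDs exceed the difference, and since breaks inside cores come from the intervals the rule used, no test is given. Runs of 1 to 3 bins went the same way, with 1.69 peaks in AC220 1 against 1.51 in DMSO 1 and 1.09 in AC220 2 against 1.04 in DMSO 2.

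The distance from a core edge outwards to the outermost edge of the peaks touching that core was then measured, counted as negative where the peak ended inside the core. The peak edges lay closer to the core with AC220 in both sets. The median extension over 2380 edges was 0.250 kb in AC220 1 against 0.482 kb in DMSO 1, and 3.54 kb in AC220 2 against 5.84 kb in DMSO 2. The rule puts an edge where a library drops under 50%, most often AC220 1, so the set 1 values are bound to it and serve as a description. The outer tail differed most. The 90th percentile was 2.13 kb in AC220 1 against 3.04 kb in DMSO 1, and 22.8 kb in AC220 2 against 39.9 kb in DMSO 2. At least 20 kb of peak lay beyond 12.1% of edges in AC220 2 and 22.5% in DMSO 2. Left and right edges were alike, with medians of 3.59 and 3.45 kb in AC220 2 and of 6.06 and 5.77 kb in DMSO 2. Peaks ended inside the core at 43.4% of edges in AC220 1 and 37.6% in DMSO 1, and at 10.6% in AC220 2 and 7.73% in DMSO 2.

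Pooled, the median extension was 1.90 ± 2.33 kb with AC220 and 3.16 ± 3.79 kb with DMSO (SD, n = 2 each), a difference of -1.27 kb that is smaller than the spread between sets. Because it includes the rule-bound values of set 1, it carries no test. Its sign depended on balance between the sets: without AC220 1 it was 0.29 kb and without DMSO 2 it was 1.41 kb. Runs of 1 to 3 bins gave -0.214 kb in set 1 and -1.40 kb in set 2, beside -0.232 kb and -2.30 kb for cores. The gap between cores and short runs was 0.507 ± 0.409 kb with AC220 and 0.965 ± 1.03 kb with DMSO (SD, n = 2 each), a difference smaller than these SDs, and it was not tested for the same reason.

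**Figure D2:**
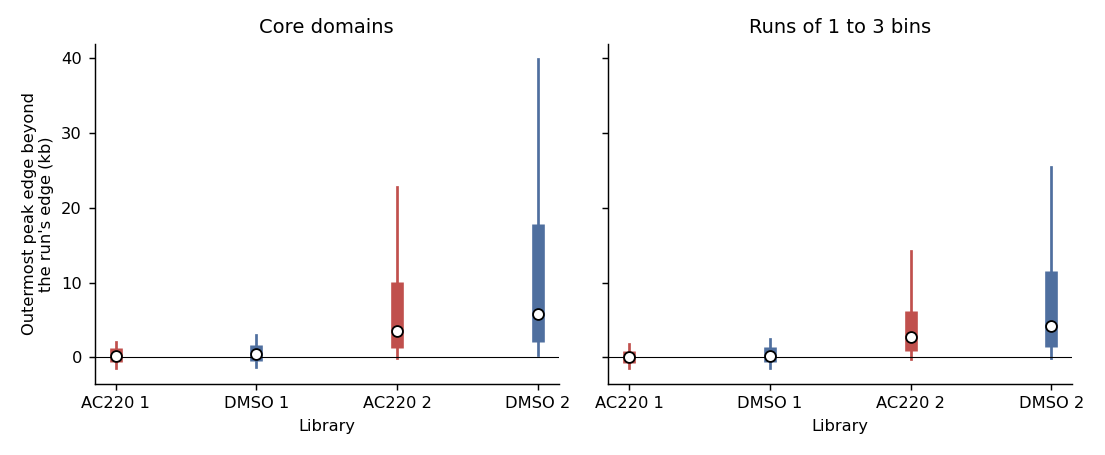
Distance in kb from the run's edge outwards to the outermost peak edge, per library, for core domains (left) and runs of 1 to 3 bins (right). Circles are medians over edges, thick bars run from the 25th to the 75th percentile and thin bars from the 10th to the 90th. For cores the medians were 0.250 kb in AC220 1 and 0.482 kb in DMSO 1, and 3.54 kb in AC220 2 and 5.84 kb in DMSO 2.

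Because set 1 drew the core edges, set 2 offers a reading that the rule hardly used. With cores defined by set 1 alone and measured in set 2, the median extension was 3.54 kb in AC220 2 and 5.85 kb in DMSO 2. The span between the outermost peak edges was at least 1 kb shorter in AC220 2 than in DMSO 2 over 685 of 1195 cores (57.3%), against 57.2% of 11719 runs of 1 to 3 bins defined by set 1 in the same way, and at least 1 kb longer over 241 (20.2%), against 18.9%. Both shares lie near those of short runs. In the reverse direction, 6566 cores defined by set 2 were covered over 47.3% of their length in AC220 1 and 54.3% in DMSO 1. Of these cores, 11 had no peak in AC220 1 and 6 had none in DMSO 1. Over the 6551 with peaks in both, the span was shorter in AC220 1 for 43.0% and longer for 28.0%, against 38.6% and 23.6% of 16922 runs of 1 to 3 bins that set 2 defined and that had peaks in both. Each of these readings rests on 1 pair of libraries and has no replicate check.

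Core by core, the direction was shared between the sets in a minority. The span was at least 1 kb shorter with AC220 in both sets over 308 cores (25.9%), against 24.2% of runs of 1 to 3 bins. It was at least 1 kb longer in both sets over 64 cores (5.38%), against 4.86% of those runs. Both shares lie near those of short runs and are no result about cores. In 236 cores (19.8%) the sets differed in direction, against 17.6% of short runs. In the other 582 (48.9%) at least 1 set differed by less than 1 kb, against 53.3% of short runs. The median difference was -0.539 kb in set 1 and -2.90 kb in set 2. In set 2 its 10th and 90th percentiles were -42.2 kb and 4.72 kb, so the differences reached much farther on the shorter than on the longer side. Short runs had -28.9 kb and 3.24 kb. The differences of the sets were weakly related over the 1190 cores, with Pearson's r = 0.17 and Spearman's rho = 0.11. Short runs had r = 0.110 and rho = 0.109. These are given as a description because cores of a library share that library and some share a peak. With peaks joined across gaps of up to 5 kb, 251 cores were shorter in both sets (21.1%, against 24.8% of short runs) and 187 longer (15.7%, against 13.5%), so the longer count depends on how breaks in a peak are treated.

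**Figure D3:**
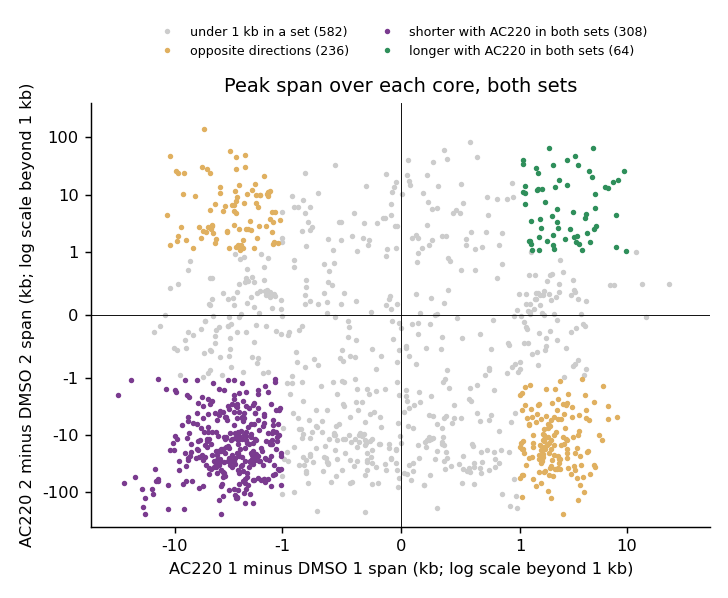
Difference in peak span over each of the 1190 cores, AC220 1 minus DMSO 1 in kb on the horizontal axis and AC220 2 minus DMSO 2 in kb on the vertical axis, both on a log scale beyond 1 kb. Colours mark 308 cores shorter with AC220 in both sets, 64 longer in both, 236 in opposite directions and 582 under 1 kb in a set; the lower left quadrant is the fullest coloured one.

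The share of cores with a shorter span varied little with core length. It was 24.3% among 503 cores of 20 kb, 27.5% among 418 of 25 or 30 kb, 26.98% among 189 of 35 to 45 kb and 25% among 80 of 50 kb or more. Over the longest class the median extension was 0.324 kb in AC220 1 against 0.568 kb in DMSO 1, and 3.75 kb in AC220 2 against 8.12 kb in DMSO 2. By chromosome the median span difference was negative in both sets on 17 of 22, a count not made for short runs. Over all short runs the median was also negative, at -0.442 kb in set 1 and -1.999 kb in set 2. Beside 25.9% of all cores and 24.2% of all short runs, the share shorter in both sets was 37.8% of 111 cores on chromosome 6, where it was 31.9% of short runs. It was 37.1% of 105 cores and 30.9% of short runs on chromosome 8, and 37.5% of 56 cores and 27.7% of short runs on chromosome 12. On chromosome 20 it was 5.88% of 34 cores and 15.1% of short runs. Short runs of these 4 chromosomes thus leaned the same way as the cores. The core share with peaks joined across 5 kb was 30.6% on chromosome 6, 31.4% on chromosome 8, 16.1% on chromosome 12 and 5.88% on chromosome 20, beside 21.1% of all cores. In unstained bands 193 of 758 cores (25.5%) were shorter in both sets and 44 were longer (5.80%), beside 21.9% and 5.73% of the short runs there. In the darkest bands 14 of 37 cores (37.8%) were shorter and 0 longer, beside 31.5% and 1.51% of the short runs there. The darkest bands, with peaks joined across 5 kb, had 16 of 37 cores shorter and 0 longer, beside 36.9% and 5.70% of short runs. None of these shares was tested against the rest.

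In the bands of the HOX clusters, 15 of 38 cores (39.5%) were shorter with AC220 in both sets and 0 were longer in both. Over all autosomes this was 24.2% and 4.86% of short runs, and short runs of these bands alone were not counted. The shorter cores were 9 of 23 in the HOXD band, 3 of 8 in the HOXB band and 3 of 7 in the HOXC band. Some neighbours in the HOXD band, both called shorter, had the same DMSO 2 span, such as 97.9 kb. These cores are therefore not separate observations. With peaks joined across 5 kb, 7 of 38 HOX-band cores were shorter and 2 longer, beside 24.8% and 13.5% of all short runs. The high share thus did not hold under that setting. In the developmental bands 60 of 199 cores (30.2%) were shorter and 6 longer (3.02%). In the myeloid bands 7 of 45 (15.6%) were shorter and 3 longer (6.67%), beside 25.9% and 5.38% of all cores. These lists share bands and are not separate groups. The HOXD band 2q31.1 also counts as developmental, and 9q33.3 and 16q24.1 count as both developmental and myeloid. With peaks joined across 5 kb the developmental counts were 43 (21.6%) and 29 (14.6%), and the myeloid counts 2 (4.44%) and 10 (22.2%). All cores then had 21.1% shorter and 15.7% longer.

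The 10 longest cores are given by the span of their peaks in each library. The first, 180 kb in 10q24.31 (chromosome 10, 102835001 to 103015000), had a peak span of 182.5 kb in AC220 1 and 183.4 kb in DMSO 1, and of 199.8 kb in AC220 2 and 193.8 kb in DMSO 2. Its neighbour in the same band, of 130 kb (102465001 to 102595000), spanned 128.7 kb in AC220 1 and 127.4 kb in DMSO 1. In set 2 it formed the inner part of a domain of 270.9 kb in both libraries, which reached about 140.5 kb to the left in AC220 2 and 140.4 kb in DMSO 2. These PAX2-band domains thus had matching outer edges within a few kb, apart from the right shoulder of the longest one.

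The core of 160 kb in the FLT3 and PDX1 band 13q12.2 (chromosome 13, 28345001 to 28505000) spanned 163.5 kb in AC220 1 and 168.7 kb in DMSO 1, and 186.1 kb in AC220 2 and 186.2 kb in DMSO 2. On its left the peaks reached 0.980 kb in AC220 1 and 6.68 kb in DMSO 1, and 23.1 kb in AC220 2 and 23.3 kb in DMSO 2. The core of 160 kb in 1q32.1, the band of the cardiac troponin gene TNNT2 (chromosome 1, 201230001 to 201390000), went the other way. It spanned 165.2 kb in AC220 1 and 163.8 kb in DMSO 1, and 176.0 kb in AC220 2 and 163.8 kb in DMSO 2, the extra length lying on its right.

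Of the 10 longest cores, those in the HOXD and HOXC bands, and the one of 105 kb in 6p25.3 described below, had shorter spans with AC220 in both sets. In the HOXD band the core of 135 kb (chromosome 2, 176935001 to 177070000) spanned 136.1 kb in AC220 1 and 138.7 kb in DMSO 1, and 147.9 kb in AC220 2 and 236.7 kb in DMSO 2. The AC220 2 peak reached 0.332 kb to the left and 12.6 kb to the right of the core, whereas the DMSO 2 peak reached 49.1 kb and 52.7 kb. In the HOXC band the core of 125 kb (chromosome 12, 54125001 to 54250000) spanned 124.8 kb in AC220 1 and 127.5 kb in DMSO 1, and 127.7 kb in AC220 2 and 254.9 kb in DMSO 2. Here AC220 2 had 4 peaks on the core, the last ending 2.48 kb past its right edge, while DMSO 2 had 1 peak that ran 129.9 kb past it. With peaks joined across 5 kb the HOXD core stayed shorter in both sets, with a difference of -21.2 kb in the set that differed less, and the HOXC core did not, at 0.34 kb. The longest core of the HOXB band, of 75 kb (chromosome 17, 46770001 to 46845000), is not among the 10 and was added after its values were seen. It spanned 74.3 kb in AC220 1 and 75.7 kb in DMSO 1, and 79.2 kb in AC220 2 and 80.1 kb in DMSO 2, under 1 kb apart in set 2.

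In 6p25.3, the FOXC1 and FOXF2 band, the core of 125 kb (chromosome 6, 945001 to 1070000) spanned 124.8 kb in AC220 1 and 132.3 kb in DMSO 1, and 162.4 kb in AC220 2 and 162.7 kb in DMSO 2. The core of 105 kb beside it (1180001 to 1285000) spanned 104.4 kb in AC220 1 and 120.6 kb in DMSO 1, and 124.1 kb in AC220 2 and 209.4 kb in DMSO 2. In this second core the difference lay on the left, towards its neighbour, where the peaks reached 1.23 kb in AC220 1 against 17.4 kb in DMSO 1 and 20.1 kb in AC220 2 against 105.7 kb in DMSO 2. With peaks joined across 5 kb it did not stay shorter in both sets, at -0.002 kb in the set that differed less. Of the remaining long cores, the one of 130 kb in 5q13.2, the band of the forkhead gene FOXD1 (chromosome 5, 72400001 to 72530000), differed by less than 5 kb in each set. The one of 105 kb in 10q26.13 (chromosome 10, 125465001 to 125570000) spanned 103.2 kb in AC220 1 and 103.4 kb in DMSO 1, and 107.7 kb in AC220 2 and 143.7 kb in DMSO 2.

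**Figure D4:**
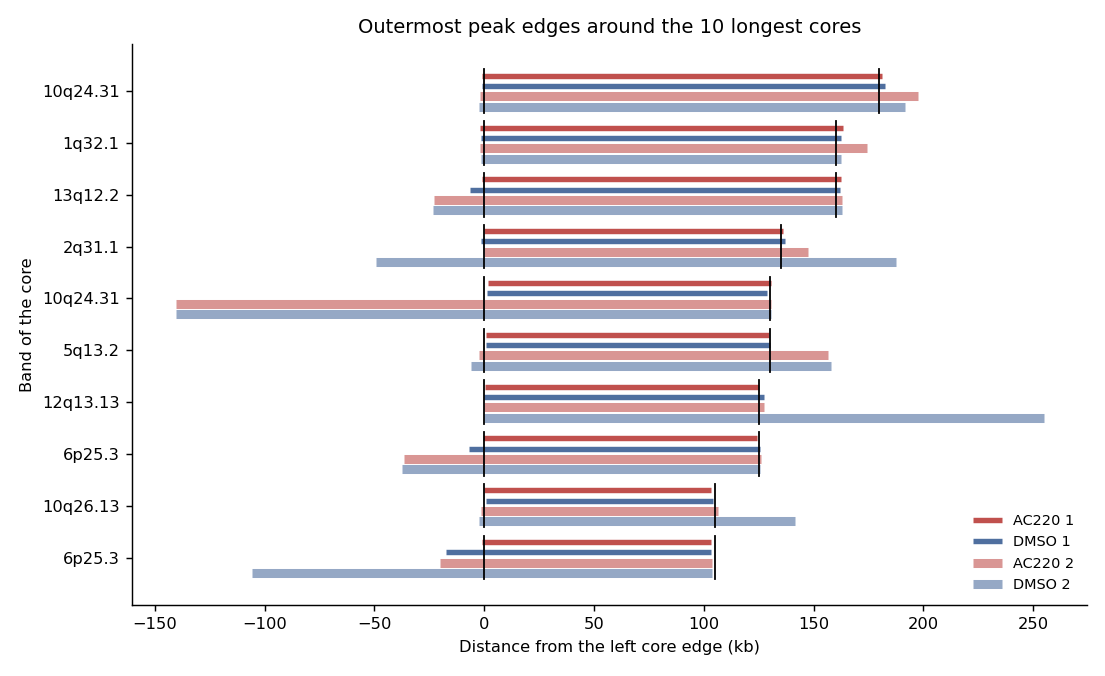
Outermost peak edges around the 10 longest cores, as distance in kb from the left core edge, with black ticks at both core edges and rows named by band. Thin bars are AC220 1 and DMSO 1, thick pale bars AC220 2 and DMSO 2. The DMSO 2 bar outreaches the AC220 2 bar by most in 12q13.13, 2q31.1 and the lower 6p25.3 row, while in 1q32.1 and the upper 10q24.31 row AC220 2 reaches farther.

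The 5 cores with the most negative span difference shared by both sets were chosen by these differences, which are therefore a description. In 6q27 (chromosome 6, 167630001 to 167675000) the span was 45.1 kb in AC220 1 and 75.04 kb in DMSO 1, and 112.4 kb in AC220 2 and 180.4 kb in DMSO 2. In 1q32.2 (chromosome 1, 210415001 to 210440000) it was 25.5 kb in AC220 1 and 49.1 kb in DMSO 1, and 52.5 kb in AC220 2 and 106.6 kb in DMSO 2. In 10q22.3 (chromosome 10, 78805001 to 78825000) it was 20.1 kb in AC220 1 and 40.4 kb in DMSO 1, and 41.5 kb in AC220 2 and 128.3 kb in DMSO 2. The remaining cores were neighbours in the EMX2 band 10q26.11, inside a single DMSO 2 peak of 268.9 kb. Over the first (chromosome 10, 119260001 to 119320000) the span was 60.2 kb in AC220 1 and 79.8 kb in DMSO 1, and 88.0 kb in AC220 2. Over the second (119345001 to 119370000) it was 25.25 kb in AC220 1 and 44.3 kb in DMSO 1, and 29.8 kb in AC220 2. The 5 cores with the most positive shared difference differed by less. The first of them, in 2p23.3 (chromosome 2, 26720001 to 26740000), spanned 28.9 kb in AC220 1 and 19.5 kb in DMSO 1, and 105.7 kb in AC220 2 and 79.6 kb in DMSO 2. The other cores lay in 6p24.3, 10q25.3, 15q15.3 and 12p13.33, with spans at least 6.27 kb longer in each set. With peaks joined across 5 kb, 2 of the 14 named cores that had a shared direction kept it, so these single-core edges depend on short breaks in the peaks.

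Coverage around cores declined slowly and stayed above the level of the rest of the genome out to 50 kb. In the first 5 kb outside an edge the mean covered share was 31.8% in AC220 1 against 38.5% in DMSO 1, and 75.8% in AC220 2 against 79.5% in DMSO 2. At 45 to 50 kb it was 23.2% in AC220 1 against 27.2% in DMSO 1, and 49.7% in AC220 2 against 52.8% in DMSO 2. In bins neither in nor near a core it was 4.92% in AC220 1 against 6.17% in DMSO 1, and 14.7% in AC220 2 against 17.9% in DMSO 2. AC220 was lower at each of the 10 distances in both sets, with differences of -6.70 to -3.72 points in set 1 and -3.76 to -2.38 points in set 2. Without the bin adjoining the same core, the mean from 5 to 50 kb was 43.5% ± 20.8 with AC220 and 47.2% ± 19.9 with DMSO (SD, n = 2 each). The set differences were -4.39 and -3.005 points. This mean still holds bins that adjoin a neighbouring core and had failed in at least 1 library. It is thus partly bound to the rule, and its test is given with that limit. The two-sided exact permutation test over the 4 libraries did not separate the treatments (p = 0.667), and with 2 libraries of each it cannot give a p below 0.333. In set 1 the first bin outside the edge was lower than the second under both treatments, the bin that by the rule had failed in at least 1 library.

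How the surroundings of cores compared with the rest of the autosomes depended on the scale. In points the difference was -4.34 in flanking bins against -1.25 in the remaining bins in set 1, and -3.08 against -3.24 in set 2. As a proportion it was smaller in flanking bins, whose coverage was the higher one. Counting each flanking bin once, the covered share was 28.1% in AC220 1 against 32.4% in DMSO 1 (a change of -13.4%) and 58.5% in AC220 2 against 61.6% in DMSO 2 (-5.01%). In the remaining bins the same change was -20.2% in set 1 and -18.05% in set 2. The log2 ratio of flanking to remaining coverage was 2.51 in AC220 1 against 2.39 in DMSO 1, and 1.99 in AC220 2 against 1.78 in DMSO 2. It averaged 2.25 ± 0.37 with AC220 and 2.09 ± 0.43 with DMSO (SD, n = 2 each), a difference smaller than these SDs. When the longer list of each set was trimmed to the covered length of the shorter, the flanking share differed by -0.839 points in set 1 and -0.564 in set 2, against -4.65 and -3.08 untrimmed. The median extension then differed by -0.195 kb in set 1 and -2.41 kb in set 2. Trimming dropped whole peaks, those of weakest q first, and shortened none. It could thus hardly move the edges of peaks on cores, and these extension values are no check on list size.

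**Figure D5:**
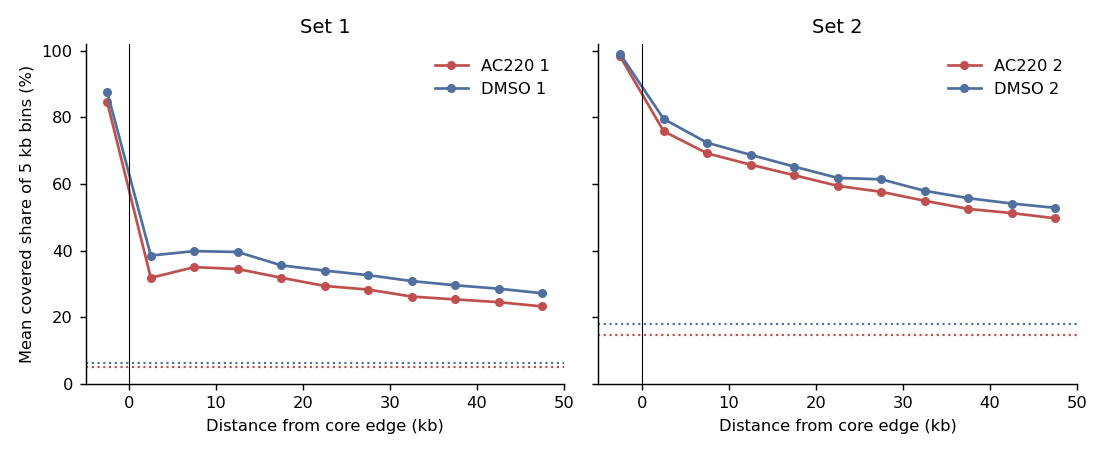
Mean covered share of 5 kb bins (%) inside cores (leftmost point) and at increasing distance from the core edge in kb, for set 1 (left) and set 2 (right). Dotted lines give the share in autosomal bins neither in cores nor within 50 kb of one. AC220 lies below DMSO at each distance, and at 45 to 50 kb all 4 curves are still above their dotted lines.

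Single bins beside cores seldom moved by much. A bin was counted as lower when AC220 was at least 25 points below DMSO within each set, which held for 0.76% of all autosomal bins, and as higher in the reverse case, which held for 0.111%. Of 2322 bins adjoining a core, 57 (2.45%) were lower and 24 (1.03%) higher. Of 19202 flanking bins up to 50 kb, 322 (1.68%) were lower and 81 (0.422%) higher. Among autosomal bins with any peak the shares were 2.06% lower and 0.300% higher, so for the lower call the bins around cores lie near that background, and for the higher call both adjoining and flanking bins lie above it. Adjoining bins are conditioned by the rule, having failed in at least 1 library, and neither share was tested. Inside cores, where the rule itself limits the difference, 6 of 6853 bins were lower and 1 was higher.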

How the data were processed

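Peak lists of 4 H3K27me3 libraries were used. The submitters' processing notes list the tools BWA (0.7.10-r789) and MACS2 (2.1) but not what each was used for. The authors deposited 1 broad peak list per library, with positions in bp, a score, a fold enrichment (a ratio over the background of the same library) and a p-value and q-value as -log10. The genome build, and any use of inputs or Drosophila reads for the calls, are not stated in the labels. Contig names and the highest peak end on chromosome 1 (249236554, within 249250621) match GRCh37, whose lengths and bands came from circlize 0.4.16 in R 4.3.3. No gene annotation or sequence of this build was used here, so the planned gene counts and the printing of sequences were not run. No depth is given, hence no interval or detection limit.

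Covered shares, runs and edges were computed in numpy 2.4.6 and pandas 2.3.3 under Python 3.11.15. A span runs between the outermost edges of peaks overlapping a core by at least 1 bp. The treatments were set against each other by enumerating all 6 ways to assign 4 libraries (two-sided exact permutation test). Measures bound to the rule carry no test, except the flanking mean from 5 to 50 kb, which is bound to it in part. Cores named are the 10 longest and the 5 with the largest span difference shared by both sets in each direction. The code was tested on simulated lists. The members, lists and rules were chosen with earlier results of these data known. Figures were drawn with matplotlib 3.10.9.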

Additional observations from a re-analysis of the deposited data

How the results depend on the processing

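Within each set the median extension and the flanking share stayed lower with AC220 under all alternatives that gave them, leave-one-out included. For extension the trimmed lists are no real alternative, since trimming drops whole peaks and shortens none. Extension differed by -1.94 to -0.137 kb in set 1 and by -4.36 to -0.89 kb in set 2. Joining peaks across 5 kb gave -1.94 kb in set 1 and 187 cores longer in both sets, and bins of 2 kb gave -4.36 kb in set 2. The flanking share in set 1 was -0.839 points with lists trimmed within sets, -1.10 with all lists at the shortest length and -2.79 with cores from set 2; in set 2 it was -0.564 with lists trimmed within sets and -4.24 with a covered share of 25%.

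The number of cores followed the rule. It was 3108 (99.4 Mb) at a covered share of 25%, 350 (9.505 Mb) at 75%, 2244 with 3 bins, 426 (17.68 Mb) with 6 bins, 343 (9.58 Mb) with bins of 2 kb, 2114 (63.7 Mb) with bins of 10 kb and 442 (12.96 Mb) with -log10 q of at least 2. Cores shorter, longer and in opposite directions numbered, in the same order, 710, 161 and 563; 109, 19 and 64; 571, 131 and 445; 117, 20 and 87; 88, 21 and 73; 541, 130 and 425; and 143, 20 and 89. As shares, shorter cores made up 21.09% to 32.4% under every setting and longer ones 4.52% to 15.7%.

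Leaving out each library in turn gave 1192 to 2194 cores and 34.31 to 66.3 Mb, the highest without AC220 1. The pooled extension ran from -2.92 to 1.41 kb and the pooled flanking share from -19.4 to 11.7 points. Without AC220 1 these were reversed to 0.29 kb and 11.7 points, and without DMSO 2 to 1.41 kb and 10.9 points, since either removal leaves the sets unbalanced. Within set 2 the flanking share ran from -4.91 to -2.82 points and the extension from -1.68 to -1.43 kb; within set 1 they were -4.65 to -4.63 points and -0.234 kb. Counts that need both sets could not be had with a library left out.

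Deviations of same-numbered libraries from their treatment means had a correlation of 0.44 over bins with any peak, but the labels do not say what a number marks. With the replicate number as a block, the pooled extension differed by -1.27 kb and the flanking share by -3.86 points. The extension includes the rule-bound values of set 1, and the share includes the bin adjoining each core. Neither therefore carries a test. Of the 14 named cores with a shared direction, 14 kept it with peaks joined across 1 kb or lists trimmed within sets, 13 with all lists at the shortest length, 11 with the stricter q, 8 with overlap of at least 50% of the peak or 5 kb, and 2 with peaks joined across 5 kb. The core in 6p24.3 was reversed under that last setting, at -43.4 kb. The counts with trimmed lists could hardly fall, because trimming shortens no peak. Causes were not tested.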

Other observations

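The core that differed least between treatments lay in 15q13.1 (chromosome 15, 28645001 to 28665000), with a span of 20.7 kb in AC220 1 and 20.8 kb in DMSO 1, and of 22.8 kb in AC220 2 and 22.7 kb in DMSO 2. The core with the largest difference in a single set lay in 6q23.2 (chromosome 6, 132040001 to 132060000). Its span was 21.8 kb in AC220 2 and 262.2 kb in DMSO 2, and in set 1 it went the other way, at 20 kb in AC220 1 and 17.5 kb in DMSO 1.

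Gaps of a single bin between neighbouring cores numbered 58. AC220 1 was under the limit in 46 of them, DMSO 1 in 34, AC220 2 in 8 and DMSO 2 in 4. In 34 gaps a single library was under it.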
